A study of Homo sapiens with 6 samples.

Results

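Transforming growth factor beta (TGF-beta) signalling was described through 9 genes in HCT-8, an established epithelial cell line from a human colorectal adenocarcinoma. The genes were 3 TGF-beta ligands (TGFB1, TGFB2 and TGFB3), the activin subunit INHBA, the bone morphogenetic protein BMP2, the receptors TGFBR1 and TGFBR2, and the intracellular proteins SMAD3 and SMAD7. They were picked by exact gene symbol from the deposited gene count table, and all 9 were found among its 58735 genes. Total RNA came from 3 untreated control samples and from 3 samples treated with 5-fluorouracil (5-FU), a chemotherapy drug that inhibits thymidylate synthase and enters RNA and DNA as a false base. The drug was given at the concentration that inhibits by 10%; its molar dose and duration are not given in the labels. All samples are the same cell line. Nothing in the labels says that samples of 1 group came from separate cultures. The p-values therefore measure the spread between these samples alone, which may be technical.

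TGF-beta ligands are secreted in a latent complex, and once released they bind the type II receptor TGFBR2, which recruits and phosphorylates the type I receptor TGFBR1. The activated receptor phosphorylates SMAD2 and SMAD3, which join SMAD4 and regulate genes in the nucleus; SMAD7, itself a target, blocks the receptor. Activins use related receptors and the same SMADs, whereas BMPs act through other receptors and SMAD1 and SMAD5. In intestinal epithelium the pathway restrains growth, and colorectal tumours with defective mismatch repair often carry frameshifts in TGFBR2, which gene counts do not show.

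The 3 TGF-beta ligand genes encode similar proteins, and the sequences before their transcription starts are shown first. Each is the 240 bases before an annotated start, 5′ to 3′ on the strand of the gene, from RefSeq promoter sequences of build GRCh38.p14. Capitals mark TATAAA, the core of the TATA box, and GGGCGG, the core of the site bound by SP1, both searched on both strands (GGGCGG on the other strand reads CCGCCC). The TGFB1 window is chr19:41353923-41354162 on the minus strand, the TGFB2 window chr1:218345096-218345335 on the plus strand, and the TGFB3 window chr14:75981996-75982235 on the minus strand.
TGFB1: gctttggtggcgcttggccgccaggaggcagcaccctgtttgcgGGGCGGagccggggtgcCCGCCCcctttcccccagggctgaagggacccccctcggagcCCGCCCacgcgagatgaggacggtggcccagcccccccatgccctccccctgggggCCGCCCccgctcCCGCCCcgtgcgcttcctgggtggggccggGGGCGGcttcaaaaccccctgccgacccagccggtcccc
TGFB2: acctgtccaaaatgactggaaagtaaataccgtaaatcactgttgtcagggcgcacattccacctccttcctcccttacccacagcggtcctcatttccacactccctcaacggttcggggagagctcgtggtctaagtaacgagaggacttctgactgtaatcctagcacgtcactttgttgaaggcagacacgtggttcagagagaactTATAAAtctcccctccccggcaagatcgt
TGFB3: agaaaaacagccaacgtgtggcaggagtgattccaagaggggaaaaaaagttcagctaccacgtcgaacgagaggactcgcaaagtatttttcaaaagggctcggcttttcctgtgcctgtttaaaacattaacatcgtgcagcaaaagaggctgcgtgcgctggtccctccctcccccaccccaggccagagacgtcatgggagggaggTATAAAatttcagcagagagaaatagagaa

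The TGFB1 window held GGGCGG 6 times and no TATAAA, with a GC content of 77.5%. In the TGFB2 window TATAAA began 29 bases before the start, and the GC content was 50.4%. The TGFB3 window held it 30 bases before the start, at a GC content of 49.6%. A second annotated TGFB3 start, farther upstream, had neither motif. Among all 34943 windows of this length, 10.3% held TATAAA and 42.2% held GGGCGG. Entries were found for 8 of the 9 genes, not for BMP2. Windows with GGGCGG but no TATAAA were also found for TGFBR1 and TGFBR2, which fell, and for SMAD3, which rose. INHBA and SMAD7, which rose, each had a window with TATAAA, 11 bases before the start for INHBA and 35 for SMAD7. SMAD3, SMAD7, TGFBR1 and TGFBR2 also had windows with neither motif. Whether these motifs go with the direction of change was not tested. These letters were compared after the expression values were known, and a match describes the sequence, not a bound site.

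Levels of a gene across libraries are given as CPM, counts scaled to the library size (counts per 1e+06), with TMM factors. Differences were tested with the quasi-likelihood test of edgeR on the counts, with p-values adjusted over all 19771 tested genes and an adjusted p under 0.05 required for a call. Of the 9 genes, 5 rose (TGFB2, TGFB3, INHBA, SMAD3 and SMAD7), 3 fell (TGFB1, TGFBR1 and TGFBR2) and BMP2 did not pass. This share must be read against a background in which 70.2% of tested genes were called, 36.3% higher and 33.9% lower after 5-FU. All 9 passed the filter on low counts, INHBA through its 5-FU libraries alone, so its call is a description and supports no count. The counts and the median given here still include it. The median log2 fold change of the 9 was 0.47, against 0.09 over all tested genes. Without INHBA the median falls between BMP2 (-0.37) and SMAD3 (0.47), so no shift of the group is read from it. The CPM ranges of control and 5-FU libraries did not overlap for 8 of the 9, with 5-FU above for TGFB3, INHBA, SMAD3 and SMAD7 and below for TGFB1, TGFBR1, TGFBR2 and BMP2. Over all tested genes the ranges were apart for 74.3%, with 5-FU above for 38.4% and below for 35.9%.

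**Figure D1:**
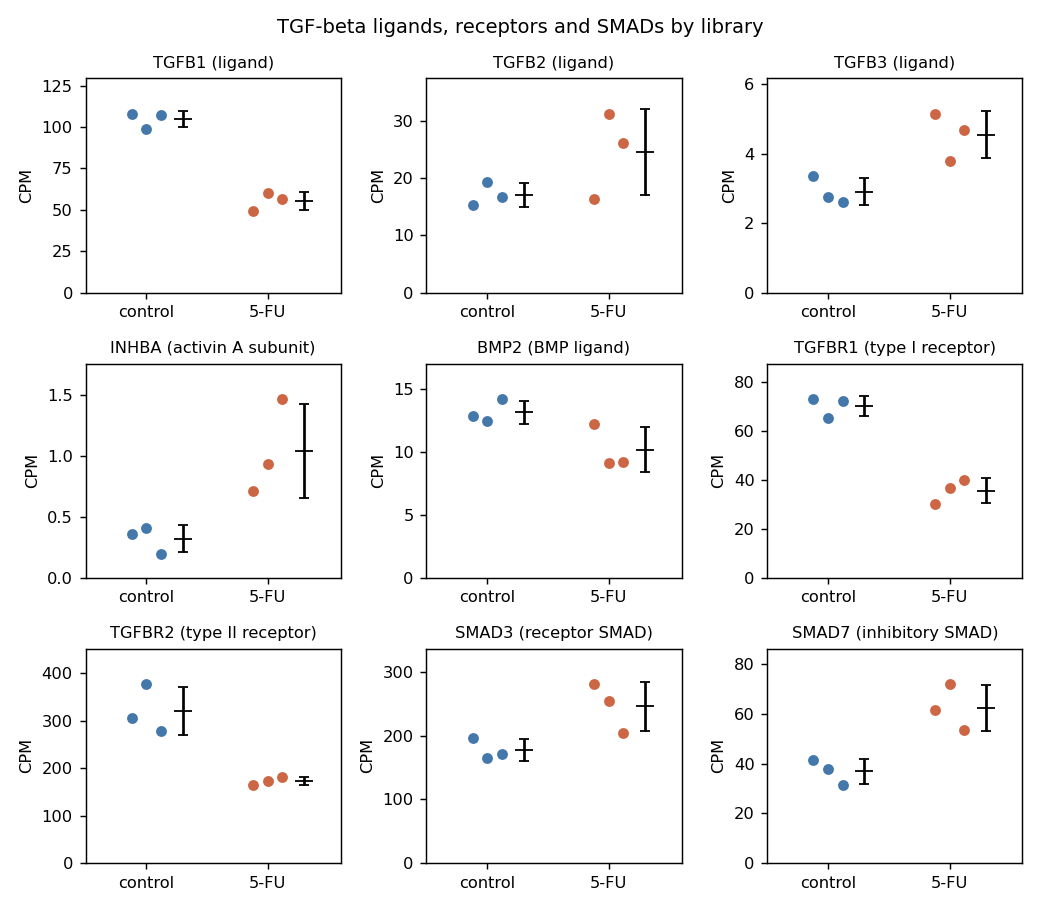
Level of each of the 9 genes in CPM in 3 control and 3 5-FU libraries; points are libraries, and the bar beside them is the mean with its SD. TGFB1, TGFBR1 and TGFBR2 lay lower in every 5-FU library, while the 5-FU libraries of TGFB2 reached into the control range.

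TGFB1, the main TGF-beta isoform of most epithelial cells, fell 1.89-fold. Its level was 108, 99.1 and 107 CPM in the control libraries and 49.4, 60.1 and 56.4 CPM in the 5-FU libraries. The groups did not overlap, and the gap between them was several times the spread within either. On the log2 scale TGFB1 changed by -0.92 (SE 0.12, edgeR adjusted p = 3.50e-05). TGFB1 lies on chromosome 19 at 41301587 to 41353911 on the minus strand of GRCh38, and exons of HNRNPUL1 on the opposite strand cover 6.64% of its exonic bases. HNRNPUL1 had 2773 to 11920 counts, against 969 to 2402 for TGFB1. How reads in that stretch were assigned is not given.

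TGFB2, an isoform that needs the coreceptor TGFBR3 to bind TGFBR2 well, was 15.2, 19.3 and 16.7 CPM in control and 16.4, 31.1 and 26.1 CPM in 5-FU libraries. The first 5-FU library lay within the control range and the other two above it. Its increase of 0.52 on the log2 scale (SE 0.21, edgeR adjusted p = 0.0421) had the highest adjusted p of the 8 calls. The call was lost when any of 4 single libraries was left out: control replicate 1 (0.41, adjusted p = 0.162) or 3 (0.47, adjusted p = 0.118), or 5-FU replicate 2 (0.31, adjusted p = 0.246) or 3 (0.46, adjusted p = 0.127). TGFB2 lies on chromosome 1 at 218346235 to 218444619 on the plus strand. A noncoding gene on the same strand, TGFB2-OT1, covers 26.6% of its exonic bases and was listed at 0 counts in every library, and how reads in that stretch were assigned is not given.

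TGFB3, the third isoform, was scarce. It stood at 3.36, 2.76 and 2.62 CPM in control and at 5.14, 3.81 and 4.69 CPM in 5-FU libraries, from counts between 53 and 101. All 5-FU libraries were above all controls, by a narrow margin. The increase was 1.56-fold, or 0.64 on the log2 scale (SE 0.22, edgeR adjusted p = 0.0232), and the call was lost without control replicate 2 (0.57, adjusted p = 0.0655) or 3 (0.53, adjusted p = 0.0929) and without 5-FU replicate 1 (0.56, adjusted p = 0.0609) or 3 (0.59, adjusted p = 0.0651). TGFB3 lies on chromosome 14 at 75958099 to 75982991 on the minus strand; an opposite-strand gene, TGFB3-AS1, with at most 3 counts, covers 3.32% of its exonic bases.

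Within each library the make-up of the ligand pool shifted. Per gene length, in the authors' FPKM (fragments per length of the gene and per size of the library), TGFB1 took 90.1%, 87.6% and 89.8% of the summed level of the 3 isoforms in control and 78.3%, 73.1% and 74.3% in 5-FU libraries. TGFB2 took 9.18% ± 1.42 in control and 20.6% ± 3.86 in 5-FU libraries (mean ± SD over 3 libraries each). TGFB3 made up 1.63% ± 0.21 and 4.17% ± 1.17 of the pool in the respective groups. The ratio of TGFB1 to TGFB2, which does not depend on how libraries are scaled, went from 11.3, 8.15 and 10.2 in control to 4.80, 3.07 and 3.44 in 5-FU libraries. That difference was -1.40 on the log2 scale with no overlap (exact two-sided permutation p = 0.1, the smallest that 3 against 3 can give; adjusted p = 0.167 over the 5 ratios compared).

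**Figure D2:**
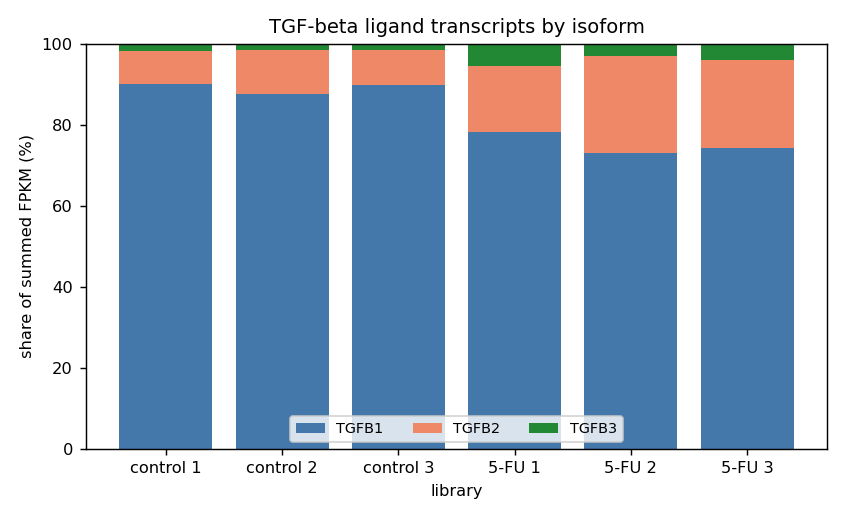
Share of TGFB1, TGFB2 and TGFB3 in their summed FPKM (percent, stacked bars) in each of the 6 libraries. TGFB1 makes up 87.6% to 90.1% of the bar in control libraries and 73.1% to 78.3% in 5-FU libraries.

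INHBA, whose product dimerises to activin A, was near the limit of detection in control cells. Counts were 8, 9 and 4 in control and 14, 18 and 31 in 5-FU libraries, which is 0.359, 0.407 and 0.197 CPM against 0.713, 0.939 and 1.47 CPM. The groups did not overlap, and the 5-FU libraries spread widely. The fitted difference was 1.67 on the log2 scale (SE 0.43, edgeR adjusted p = 0.00426). It rested on the fewest counts of the 9 genes, and the gene was tested at all only because of its counts after 5-FU. INHBA lies on chromosome 7 at 41667168 to 41705834 on the minus strand.

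BMP2, a ligand of the BMP branch, was 12.9, 12.5 and 14.2 CPM in control and 12.3, 9.13 and 9.23 CPM in 5-FU libraries. Every 5-FU library was below every control, the first of them by little. The difference of -0.37 on the log2 scale (SE 0.17) did not pass (edgeR adjusted p = 0.0667). It did pass without 5-FU replicate 1 (-0.51, adjusted p = 0.0179) or control replicate 2 (-0.44, adjusted p = 0.0482), and its log2 value ran from -0.52 to -0.01 over the alternatives. BMP2 lies on chromosome 20 at 6767664 to 6780280 on the plus strand. Its ratio to BMP4, the BMP ligand with the highest counts here, did not separate the groups (log2 difference 0.24, exact two-sided permutation p = 0.5).

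Both receptor genes fell by nearly the same factor. TGFBR1, the type I receptor kinase, was 72.9, 65.4 and 72.4 CPM in control and 30.0, 36.5 and 40.0 CPM in 5-FU libraries. TGFBR2, the ligand-binding type II receptor, was 306, 377 and 278 CPM in control and 165, 173 and 182 CPM in 5-FU libraries. For each the groups were far apart. The log2 fold change was -0.98 for TGFBR1 (SE 0.13, edgeR adjusted p = 4.86e-05) and -0.89 for TGFBR2 (SE 0.14, edgeR adjusted p = 0.000163), that is 1.98-fold and 1.85-fold lower.

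The balance between the receptor genes was not seen to change. The FPKM ratio of TGFBR1 to TGFBR2 was 0.164, 0.119 and 0.179 in control and 0.125, 0.145 and 0.151 in 5-FU libraries, so the 5-FU values lay inside the control range. The log2 difference was -0.12 (exact two-sided permutation p = 0.6), with group SDs of 0.31 and 0.15, and without control replicate 3 it was 0.00. TGFBR1 lies on chromosome 9 at 99104038 to 99154192 and TGFBR2 on chromosome 3 at 30606502 to 30694142, each on the forward strand, and no other annotated exon overlaps theirs.

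SMAD3, the receptor-activated SMAD that binds DNA, rose 1.39-fold. It was 196, 165 and 171 CPM in control and 281, 254 and 204 CPM in 5-FU libraries, with the third 5-FU library close to the first control. In FPKM, which carry the authors' own library scaling, these 2 libraries overlapped. Its log2 change of 0.47 had an SE of 0.14 (edgeR adjusted p = 0.0112), and the call was lost without control replicate 2 (0.39, adjusted p = 0.0525) or 3 (0.41, adjusted p = 0.0608). SMAD2, its partner, had a log2 fold change of -0.12 (edgeR adjusted p = 0.343). The FPKM ratio of SMAD3 to SMAD2 was 11.8, 9.58 and 10.95 in control and 18.5, 15.8 and 14.4 in 5-FU libraries, without overlap (log2 difference 0.59, exact two-sided permutation p = 0.1, adjusted p = 0.167). SMAD3 lies on chromosome 15 at 67063763 to 67195195 on the plus strand; an antisense gene with 19 to 54 counts covers 1.997% of its exonic bases.

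SMAD7, the inhibitory SMAD that feeds back on the receptor, rose 1.69-fold. Its level was 41.4, 37.9 and 31.2 CPM in control and 61.6, 71.9 and 53.5 CPM in 5-FU libraries, without overlap. Its log2 change of 0.76 had an SE of 0.15 (edgeR adjusted p = 0.000709). SMAD6, the inhibitory SMAD of the BMP branch, fell (-0.61, SE 0.23, edgeR adjusted p = 0.0330), though its first 5-FU library lay in the control range and the call was lost without control replicate 1 (-0.58, adjusted p = 0.0767) or 3 (-0.65, adjusted p = 0.0503) and without 5-FU replicate 2 (-0.46, adjusted p = 0.104) or 3 (-0.49, adjusted p = 0.0920). The ratio of SMAD7 to SMAD6 was 2.97, 3.22 and 2.46 in control and 5.00, 11.5 and 8.10 in 5-FU libraries (log2 difference 1.44, exact two-sided permutation p = 0.1, adjusted p = 0.167). SMAD7 lies on chromosome 18 at 48919853 to 48952052 on the minus strand.

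**Figure D3:**
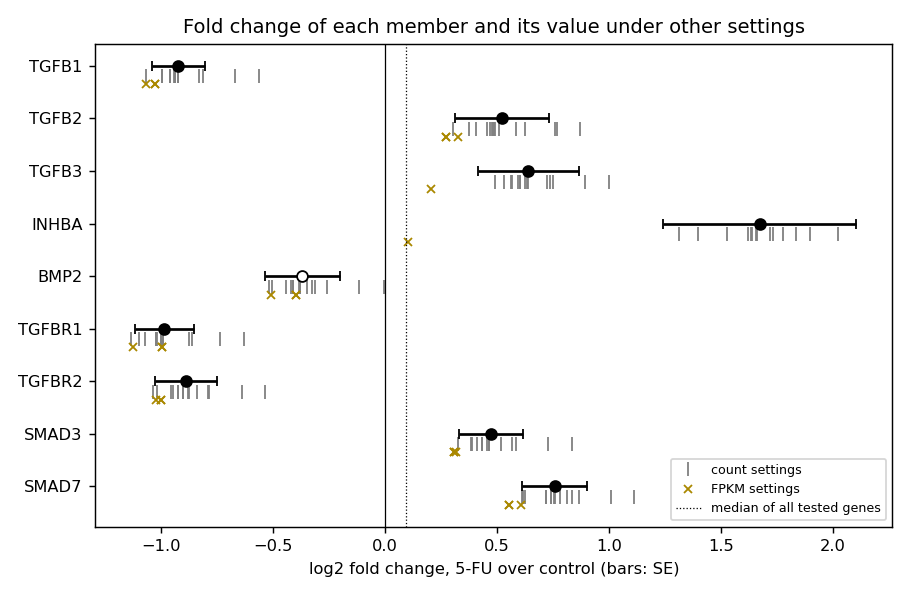
Log2 fold change of each gene, 5-FU over control, with its SE (circle, filled where called), its values under the other count settings (grey ticks) and on log2(FPKM + pseudocount) (crosses). TGFB1, TGFBR1, TGFBR2 and SMAD7 keep their call in all 18 alternatives, and BMP2 reaches -0.01.

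Levels were compared between genes per length, in FPKM. In control cells the order of mean FPKM was TGFBR2 (70.5), TGFB1 (33.6), SMAD3 (20.2), TGFBR1 (10.7), SMAD7 (7.59), BMP2 (3.80), TGFB2 (3.44), TGFB3 (0.615) and INHBA (0.0400). Only BMP2 and TGFB2 were neighbours with overlapping ranges. After 5-FU, SMAD3 (25.3) stood above TGFB1 (16.1), and SMAD7 (11.6) above TGFBR1 (4.88). TGFBR1, TGFB2 (4.50) and BMP2 (2.65) then had ranges that overlapped from one to the next. TGFBR2 remained first at 34.6 and INHBA last at 0.118.

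**Figure D4:**
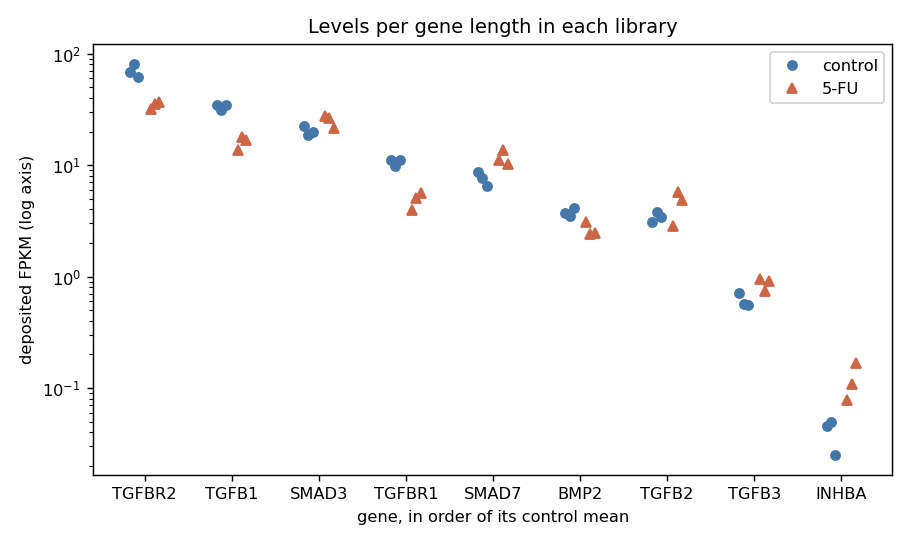
Deposited FPKM of the 9 genes in each library on a log axis, ordered by the control mean. TGFBR2 is highest and INHBA lowest in both groups, and SMAD3 and SMAD7 move above TGFB1 and TGFBR1 in the 5-FU libraries.

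As a description over 6 libraries in 2 groups, the protein-coding gene most like each one was sought among 11411 candidates, by the root mean square difference between mean-centred log2 CPM. CHMP4B, a subunit of the membrane-remodelling ESCRT complex, lay nearest to TGFB1 at 0.02. PABPC4, a poly(A)-binding protein, was nearest to TGFBR1 (0.02), SLC41A3 to TGFBR2 (0.06), SLC44A3 to TGFB3 (0.02), PARP12 to SMAD3 (0.04), SPTBN5 to SMAD7 (0.03) and ZFP62 to BMP2 (0.04). TGFB2 and INHBA had no gene as close, with GABARAPL1 at 0.13 and TBC1D10C at 0.18. With so many candidates and so few libraries, small values are frequent.

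Of 35 genes that TGF-beta induces in many cell types 33 could be tested, and 21 rose, 4 fell and 8 failed the threshold. The share called was 75.8%, against 70.2% of all tested genes, of which 36.3% were called higher and 33.9% lower. Their median log2 fold change was 0.98, against 0.09 over all tested genes. On filtered log2(FPKM + 1) 16 of 28 rose and 4 fell, at a median of 0.62, against -0.20 over all genes. CDKN2B, an inhibitor of CDK4 and CDK6, went from 1.87 ± 0.23 to 18.7 ± 4.34 CPM (3.32, SE 0.23). PMEPA1, which dampens SMAD signalling, went from 2.29 ± 0.65 to 14.2 ± 1.28 CPM (2.63, SE 0.22), and CTGF, a matricellular protein, from 22.1 ± 9.45 to 273 ± 91.7 CPM (3.63, SE 0.33). For these 3 genes the groups did not overlap and the edgeR adjusted p lay between 1.01e-06 and 3.97e-06. The 4 that fell, named after their values were seen, were KLF10 (-0.95), ADAM19 (-0.81), HMGA2 (-0.38) and TGIF1 (-0.34). The list is not specific to the pathway: CTGF is also a target of YAP, and CDKN1A, which rose too (2.09, SE 0.23), of p53. It also shares members, SMAD7 included, with other lists.

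Of 17 targets of the BMP branch 13 were tested, and 6 fell, 6 did not pass and only SMAD7, which is on both target lists, rose, at a median of -0.59. The share called, 53.8%, was below the 70.2% of all tested genes, of which 33.9% were called lower. ID1, an inhibitor of basic helix-loop-helix factors and a standard readout of BMP signalling, was 159 ± 7.50 CPM in control libraries and 56.7 ± 3.83 CPM after 5-FU, a fall of 1.49 on the log2 scale (SE 0.11, edgeR adjusted p = 1.76e-06). Its relative ID3 (-1.37, SE 0.15), the homeobox gene MSX2 (-0.70, SE 0.13) and the pseudoreceptor BAMBI (-0.63, SE 0.20) fell as well. BAMBI overlapped between the groups, and its call was lost without control replicate 3 (-0.54, adjusted p = 0.0510) or 5-FU replicate 1 (-0.47, adjusted p = 0.0678). Without 5-FU replicate 2 the median of this list was -0.32, against 0.11 over all genes. With upper-quartile scaling, under which 4 fell and 2 rose, the median was -0.22, against 0.45 over all genes.

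**Figure D5:**
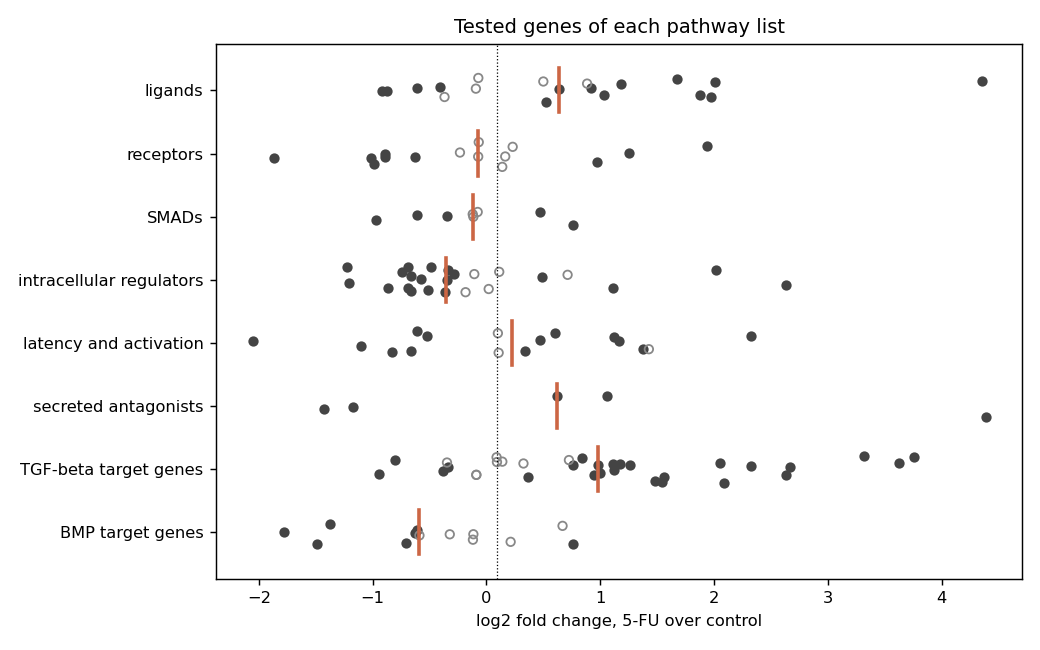
Log2 fold change of the tested genes of 8 pathway lists (points, filled where called), with each list's median (coloured bar) and the median of all tested genes (dotted line); vertical scatter within a list has no meaning. The medians are 0.98 for TGF-beta target genes and -0.59 for BMP target genes.

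Other ligands of the superfamily were mixed. Among 32 ligand genes 19 were tested and 10 rose and 4 fell, the members above included, at a median of 0.64. The share called was 73.7%, beside 70.2% of all tested genes, of which 36.3% were called higher and 33.9% lower. The tested ligands include INHBA, MSTN and GDF5, which were kept only through their 5-FU libraries. At a mean count of at least 50, 5 of 11 rose and 3 fell at a median of 0.16, against 0.02 over all genes. On filtered log2(FPKM + 1), which leaves out the low genes, 4 of 11 rose and 5 fell. Their median was -0.22 there, against -0.20 over all genes. GDF15, a stress-induced ligand that p53 also controls, went from 326 ± 128 to 1197 ± 225 CPM (1.88, SE 0.25). GDF9 (1.97) and AMH (0.92), ligands known from the gonads, rose, and GDF11 fell (-0.88, SE 0.13). Counts of GDF9 may include reads of UQCRQ, whose opposite-strand exons cover 9.33% of it.

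Other receptors and coreceptors moved in both directions. Besides TGFBR1 and TGFBR2, 13 of 17 such genes were tested; 3 rose, 4 fell and 6 did not pass, at a median of -0.07. With TGFBR1 and TGFBR2 counted in, 3 of 15 rose and 6 fell at a median of -0.07, against 0.09 over all tested genes. The share called was then 60%, beside 70.2% of all tested genes, of which 36.3% were called higher and 33.9% lower. With upper-quartile scaling 7 rose and 5 fell, at a median of 0.28, against 0.45 over all genes. With plain totals the median was 0.04, against 0.20 over all genes. BMPR1A, a type I BMP receptor, fell from 67.2 ± 1.32 to 36.2 ± 1.34 CPM (-0.89, SE 0.11), and the Nodal coreceptor TDGF1 fell by 1.87 on the log2 scale (SE 0.26). The activin type II receptor ACVR2A rose from 16.5 ± 1.157 to 32.3 ± 4.38 CPM (0.97, SE 0.14), and ENG, a coreceptor best known from endothelium, from 2.88 ± 0.38 to 11.1 ± 2.18 CPM (1.94, SE 0.21). An antisense gene with 35 to 245 counts covers 7.95% of ENG, which itself had 52 to 253 counts. Opposite-strand exons of ORC4, with 774 to 1164 counts, cover 6.35% of ACVR2A, which had 315 to 728. How reads in these stretches were assigned is not given, and their part in either rise was not tested. Endothelial markers were few: PECAM1, the most abundant, was 1.34 ± 0.29 and 2.13 ± 0.66 CPM in the 2 groups, and the summed level of 4 such genes ran from 2.17 to 3.12 CPM in control and from 3.55 to 5.55 CPM in 5-FU libraries. Their part in the ENG value was not tested.

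All 8 SMAD genes were tested, and 62.5% were called, beside 70.2% of all tested genes (36.3% higher and 33.9% lower). SMAD3 and SMAD7 rose, while SMAD1 (-0.97, SE 0.15), SMAD5 (-0.34, SE 0.11) and SMAD6, which belong to the BMP branch, fell; with upper-quartile scaling 3 SMAD genes rose and 1 fell. SMAD9, which also belongs to the BMP branch, did not pass, nor did SMAD2 and SMAD4. Upper-quartile scaling moved the median of all genes up by 0.36 on the log2 scale, and there SMAD5 was at 0.02 and SMAD6 at -0.24 (adjusted p = 0.378). The fall of SMAD5 was also lost without 5-FU replicate 3 (-0.30, adjusted p = 0.0576). With plain totals SMAD5 (-0.23, edgeR adjusted p = 0.0803) and SMAD6 (-0.50, edgeR adjusted p = 0.0742) did not pass. At a mean count of at least 50 neither SMAD5 (-0.09, edgeR adjusted p = 0.465) nor SMAD6 (-0.35, edgeR adjusted p = 0.218) passed.

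Among 24 intracellular regulators 15 fell and 4 rose, at a median of -0.35, against 0.09 over all tested genes. With upper-quartile scaling 7 fell and 7 rose, at a median of 0.00, against 0.45 over all genes. FOXH1, which is on this list, was kept only through its 5-FU libraries. The share called was 79.2%, beside 70.2% of all tested genes, of which 36.3% were called higher and 33.9% lower. FKBP1A, which binds the type I receptor and keeps it inactive (-1.23, SE 0.15), and STRAP, a receptor-associated inhibitor (-1.20, SE 0.15), fell, with every 5-FU library below every control. PMEPA1 and SKIL, a SMAD corepressor that TGF-beta induces (1.11, SE 0.15), rose.

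Of genes for latency and activation of the ligands, 16 of 20 were tested, and 7 rose and 6 fell. The share called was 81.25%, beside 70.2% of all tested genes, of which 36.3% were called higher and 33.9% lower. On filtered log2(FPKM + 1) 3 of 12 rose and 5 fell, while 4320 and 7136 of all 16093 genes did. LTBP3, a latent TGF-beta binding protein, went from 73.6 ± 2.17 to 191 ± 21.9 CPM (1.37, SE 0.12). ITGB6, the beta chain of an integrin that activates latent TGF-beta, rose from 1.04 ± 0.49 to 5.27 ± 2.003 CPM (2.33, SE 0.37), whereas its alpha partner ITGAV fell (-0.66, SE 0.115), as did NRROS, which tethers latent TGF-beta (-2.05, SE 0.34). A same-strand noncoding gene covers 20.6% of ITGB6, and same-strand exons of PIGX cover 7.63% of NRROS.

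Only 5 of 17 secreted antagonists had enough counts to be tested, and all 5 were called, beside 70.2% of all tested genes. The BMP antagonists NBL1 (-1.43, SE 0.13) and TWSG1 (-1.17, SE 0.12) fell. CHRD, also a BMP antagonist (1.06, SE 0.21), and FSTL3, which binds activin (0.62, SE 0.14), rose. Same-strand exons of a readthrough gene cover 15.35% of NBL1. Over all lists, 114 genes outside the 9 were tested, and 40 rose and 40 fell. That share of 70.2% called equals the background to the digits given. With upper-quartile scaling 57 rose and 23 fell, while 9602 and 4614 of all 19771 tested genes did.

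Total counts ranged from 18459939 to 23495607 per library. Transcripts of the mitochondrial genome made up 4.80% ± 0.12 of all counts without the drug and 26.7% ± 1.59 with it (SD over 3 libraries each), so they moved with every result above, and their part in the results was not tested beyond leaving them out, which changed no call of the 9 genes. Markers of colorectal epithelium were present, with KRT8 at 2828 ± 517 CPM in control and 1905 ± 403 CPM in 5-FU libraries. Of the 9 markers on that list 1 rose, 3 fell and 5 did not pass. That is 44.4% called, beside 70.2% of all tested genes. Their summed level ran from 4847 to 6674 CPM in control and from 3703 to 4592 CPM in 5-FU libraries. Of 8 fibroblast markers DCN and LUM had 0 counts in every library, where 3 counts, the limit a count of 0 allows, equal at most 0.156 CPM. COL1A1, which is on both the fibroblast and the TGF-beta target list, rose from 15.2 ± 3.06 to 42.4 ± 16.1 CPM. The summed level of the fibroblast list, most of it COL1A1, ran from 16.0 to 20.5 CPM in control and from 34.4 to 64.8 CPM in 5-FU libraries. Of the 8 fibroblast markers, 5 stayed under 10 counts in every library. The summed level of 5 leukocyte markers, led by CD14, was 7.14 to 7.80 CPM and 7.04 to 9.12 CPM in the 2 groups. In such bulk samples a change in the number of cells that express a gene and a change in RNA per cell cannot be told apart.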

How the data were processed

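Per the labels' protocols, TRIzol was used for the RNA and the NEBNext Ultra RNA kit for the libraries. The submitters' processing notes name build GRCh38, DESeq2 1.16.1, HISAT2 2.0.5 and featureCounts 1.5.0-p3; their settings, strand included, are not given there. The authors deposited raw counts per gene and FPKM for 58735 genes. All identifiers and positions equal those of GENCODE release 29. The deposited FPKM are counts divided by gene length and by a constant per library, which was 0.892 to 0.986 times the count total in control and 1.07 to 1.156 times in 5-FU libraries. Replicate libraries of a group differed by at least 9.02 chi-square units per gene, beyond counting noise.

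The comparison used all 6 libraries, with groups from the treatment label, in edgeR 4.0.16 (R 4.3.3): filterByExpr (minimum count 10, minimum total 15), TMM factors, the quasi-likelihood test and Benjamini-Hochberg adjustment. The SE of a log2 fold change was obtained from its unshrunk coefficient and F statistic. The 9 genes and the lists were chosen with earlier results of these data known. Besides the 9 genes, the rule named up to 4 genes per list with the smallest p among those called whose mean count reached 50, the gene with the most similar profile (mean count from 100 up, log2 CPM with a prior count of 2), and the most abundant marker per cell type. No list was tested as a set. The counts per list include 2 genes that are not reported here by name. Ratios of FPKM were given where both genes had at least 10 counts in every library; INHBA to FST did not. The test was tested on simulated data first. Alternatives were DESeq2 size factors, upper-quartile factors, plain totals, no mitochondrial genes, other filters, DESeq2 1.42.0, limma-voom and limma-trend on log2(FPKM + 1 or 0.1) (limma 3.58.1), the replicate number as a block, and leaving out each library. Fold changes on the log2 FPKM scale understate the change of low genes.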

Additional observations from a re-analysis of the deposited data

How the results depend on the processing

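All 9 genes kept their direction in every alternative that gave a value. TGFB1 (-1.07 to -0.56), TGFBR1 (-1.13 to -0.63), TGFBR2 (-1.03 to -0.54) and SMAD7 (0.55 to 1.11) were called in all 18. The call held in 7 of 18 alternatives for TGFB2, 12 of 18 for SMAD3, 10 of 16 for TGFB3 and 14 of 15 for INHBA, and BMP2 was called in 8 of 18. Of the 9 genes, 5 were called higher; that number was 2 without a low-count filter and 1 in each of the 3 FPKM settings, of which the filtered ones do not test TGFB3 and INHBA, and it ran from 2 to 4 when single libraries were left out (2 without control replicate 3, and 3 without control replicate 2 or 5-FU replicate 3). Other pathway genes called lower numbered 23 with upper-quartile factors, and 26 at a mean count of at least 50, where fewer genes are tested, against 40; those called higher numbered 25 in both filtered FPKM settings. Over all genes, 4320 and 4268 were called higher in those settings with pseudocounts 1 and 0.1, against 7171. With upper-quartile factors 4614 of all genes were called lower, against 6706. The median of all genes moved by 0.11 with plain totals, by 0.54 without a low-count filter and by -0.29 and -0.34 in the filtered FPKM settings. The ratio of TGFBR1 to TGFBR2 ran from -0.29 to 0.0010 on the log2 scale when single libraries were left out, the last without control replicate 3. With the replicate number as a block, 5 of the 9 genes were called higher and 3 lower, as without it. Same-numbered libraries did not deviate together (r across genes -0.20 to 0.06), and 1 of 6 libraries correlated best with its own number. Pairs with unlike numbers ran from -0.12 to 0.17. Deviations from a mean of 3 libraries are tied to each other, so this check cannot show whether same-numbered samples were handled together. Unless the number of genes tested is named, the cause of these differences was not tested. Depth limits INHBA most, with 4 to 31 counts.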

Other observations

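Some pathway genes at very low counts, named after their values were seen, were nearly silent in control cells. MSTN, the ligand that limits muscle growth, had 1 count in each control library and 27, 15 and 22 counts in the 5-FU libraries. FOXH1, a DNA-binding partner of SMAD2 in Nodal signalling, went from 7, 7 and 6 to 29, 18 and 29 counts, and the cartilage ligand GDF5 from 5, 5 and 3 to 21, 18 and 10 counts. With a minimum count of 10, these genes were kept only through their 5-FU libraries, so the counts are a description and no test is given.

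Several contractile and cytoskeletal targets of TGF-beta outside the naming rule differed from one another. ACTA2, smooth muscle actin, rose from 1.42 ± 0.49 to 5.90 ± 0.49 CPM and TPM1, a tropomyosin, from 33.0 ± 4.07 to 97.3 ± 22.4 CPM, while TAGLN was 36.2 ± 13.8 CPM in control and 28.4 ± 5.06 CPM in 5-FU libraries and did not pass (edgeR adjusted p = 0.231).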
